A study of Mus musculus with 6 samples.

Results

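The genes described here carry calcium into, out of and within the sarcoplasmic reticulum, the calcium store of muscle cells. They are the ryanodine receptors Ryr1, Ryr2 and Ryr3, the SERCA pumps Atp2a1, Atp2a2 and Atp2a3, the pump regulator Pln, the calsequestrins Casq1 and Casq2, and the L-type calcium channel Cacna1c. They were chosen by gene symbol, and all 10 were found among the 54532 genes of the deposited count table. RNA was sequenced from 3 control and 3 induced samples of mouse immortalized epicardium-derived cardiosphere cells (iECDCs), which the labels place in the heart ventricle of the C57BL/6 strain. Both groups were at passage 30, and both came from a line infected with a lentivirus that drives human telomerase (hTERT) from the CMV promoter and then selected with puromycin. Induced cells had received 10 µM 5-azacytidine, a drug that blocks DNA methylation and is used to drive cells toward heart muscle, for 3 days. By the labels they then spent 4 weeks in IMDM with 2% serum, whereas the methods of the study name low-glucose DMEM and a shorter culture. The methods passage the line in IMDM with far more serum, but they do not tie the sequenced control cells to that medium or give their time in culture, so drug, serum and culture time cannot be told apart. One immortalized line was used, and nothing in the labels says that the 3 samples of a group were independent lines or animals, so p-values measure the spread between these samples.

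In a heart muscle cell, each beat starts when an L-type channel in the surface membrane lets in a little calcium, which opens ryanodine receptors and releases the much larger store of the sarcoplasmic reticulum. SERCA pumps then return the calcium, phospholamban (Pln) holds the pump back until it is phosphorylated, and calsequestrin buffers the calcium inside the store. Atp2a2, Ryr2, Casq2 and Pln are the typical heart members, Atp2a1, Ryr1 and Casq1 those of fast skeletal muscle, and one splice form of Atp2a2 fills the endoplasmic reticulum of nearly every cell.

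Libraries held 19343728 to 19823369 reads in control cells and 19041133 to 19449606 in induced cells. Where a library had no read of a gene, the limit of 3 counts stands for 0.1503 to 0.1594 CPM, the count scaled to the TMM-adjusted library size, and covers counting error only. Of the markers that define other cell types, the 6 fibroblast genes summed to between 15380 and 16100 CPM in control and between 17180 and 18410 CPM in induced libraries, with 4 past the test as higher and 2 as lower. The 7 epicardial genes summed to 520.5 to 531 and to 1994 to 2177 CPM (5 higher, 2 lower). Among all tested genes 32.6% were higher and 32.2% lower, by the test described below. Heart muscle markers were mostly missing. The 14 cardiomyocyte genes summed to 14.9 to 18.0 and to 61.7 to 64.9 CPM. Most of that was Tnnt2, which rose, as did Myl7 (0 reads in control cells), and the study had picked both for display on these samples. Myl7 was tested only through the induced libraries, where it is high. Tnni3 and Tnnc1 did not pass the test. The remaining 10 had 33 control and 52 induced reads together, among them the heavy chains Myh6 (0 and 1 reads) and Myh7 (3 and 4 reads). Des, whose protein the study stained as a myocyte marker, was higher in induced cells and is described with Cacna1c below. Endothelial genes summed to 0.684 to 1.78 CPM over all libraries, and the 1 tested, Vwf, did not pass. Leukocyte genes stood at 0 in every library for 5 of 6. The platelet genes Itga2b and Pf4 and the neuronal gene Syt1 were lower in induced cells, at sums of at most 16.1 and 1.77 CPM. Pf4 and Syt1 were tested only through the control libraries, where they are high.

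Reads of the 10 calcium genes came almost entirely from a single pump and a single channel. Atp2a2 and Cacna1c held 99.5% of their 55701 reads, and the other 8 genes together had 96 control and 183 induced reads. Only 4 of the 10 reached the number of reads needed for a test. Of these, Atp2a2 and Casq1 were higher in induced cells, Cacna1c was lower, and Atp2a3 did not pass an adjusted p of 0.05 (quasi-likelihood test of edgeR, adjusted after Benjamini and Hochberg over 14246 genes). Among all tested genes 64.8% were past that threshold, 32.6% higher and 32.2% lower, so 3 of 4 is near the background. Casq1 reached the count filter in no control library and Atp2a3 in 2 of 3 induced libraries, so each was tested by virtue of the group where it is higher, and the count of 3 supports nothing about the set. In bulk RNA, fewer cells of a type and less RNA per cell cannot be told apart.

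**Figure D1:**
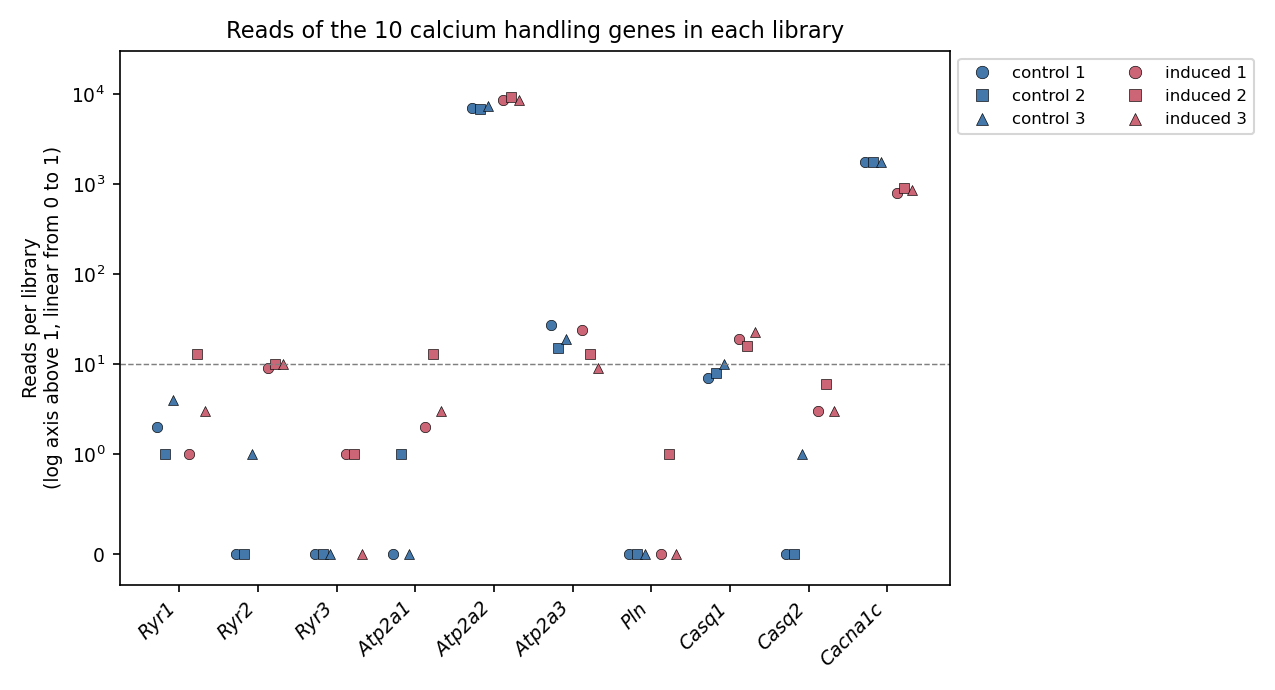
Reads of each of the 10 calcium genes in each of the 6 libraries, on an axis that is logarithmic above 1 and linear from 0 to 1. Blue marks are control and red marks induced libraries, the dashed line is the minimum count of 10 used in filtering, and only Atp2a2 and Cacna1c lie far above it, between 791 and 9197 reads.

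The pump gene Atp2a2 (ENSMUSG00000029467, chromosome 5, 122453513 to 122502225, minus strand) encodes SERCA2, which drives calcium from the cytosol into the store. Control libraries held 356.6, 349.3 and 369.4 CPM and induced libraries 457.3, 483.8 and 447.2 CPM. Every induced library lay above every control library, a separation seen in 34.1% of tested genes in that direction and in 68.6% in either direction. The mean moved from 358.4 ± 10.2 to 462.8 ± 18.9 CPM (SD, n = 3), 1.29-fold or 0.37 on the log2 scale (SE 0.0462, adjusted p 1.30e-06 by edgeR). Per length of transcript it was by far the most abundant of the set, at 58.4 FPKM (fragments scaled to transcript length and library size) in control and 76.0 FPKM in induced cells, above 97.1% of all genes with a read. The deposited values are per gene and do not separate the muscle from the general splice form.

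The sister pumps stood near the limit of detection. Atp2a3 (ENSMUSG00000020788, chromosome 11, 72961169 to 72993044, plus strand), the SERCA3 of blood and epithelial cells, had 27, 15 and 19 reads in control and 24, 13 and 9 in induced libraries. The groups overlapped, and the log2 difference of -0.34 had an approximate 95% interval of -1.10 to 0.41 (edgeR adjusted p 0.450). Atp2a1 (ENSMUSG00000030730, chromosome 7, 126445858 to 126463108, minus strand), the fast skeletal muscle pump, had 0, 1 and 0 reads in control and 2, 13 and 3 in induced libraries. All induced libraries were above all control libraries, as in 34.1% of all tested genes, though Atp2a1 was not among those tested. Of its induced reads, 72.2% lay in induced replicate 2. Pooled over libraries and scaled to their totals, the ratio of induced to control reads was 18.3, with an exact binomial 95% interval of 2.89 to 761.8 for counting error. It was 7.58 without that library and 12.1 to 24.4 with other single libraries left out, while without control replicate 2 no control read remained. Of the exon bases of Atp2a1, 21.9% overlap Rabep2 on the other strand, a gene at 26.5 and 24.2 CPM, and since the library kit does not mark strand its few reads are uncertain.

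By FPKM, Atp2a2 supplied 99.7% ± 0.0892 of the SERCA transcripts in control cells and 99.7% ± 0.119 in induced cells (SD, n = 3). The difference of 0.0203 percentage points was smaller than the spread (exact permutation test, two-sided, p = 0.9, where 3 against 3 cannot go below 0.1).

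Pln (ENSMUSG00000038583, chromosome 10, 53337667 to 53345987, plus strand), whose product restrains SERCA2 in heart muscle, had 0 reads in 5 libraries and 1 read in induced replicate 2. Both groups were at or under 3 reads, so no fold is given. Relative to Atp2a2 its FPKM was 0% in control and 0.00799% in induced cells. Exons of Pln share 64.7% of their bases with other genes, mainly Cep85l at 6.15 and 6.96 CPM, so reads of Pln could also have been left uncounted or assigned to its neighbour.

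Inside the store, calcium is held by the calsequestrins. Casq1 (ENSMUSG00000007122, chromosome 1, 172209894 to 172219868, minus strand), the form of fast skeletal muscle, had 7, 8 and 10 reads in control and 19, 16 and 23 in induced libraries. The lowest induced library was above the highest control library, as in 34.1% of all tested genes. The level went from 0.421 ± 0.0740 to 1.02 ± 0.182 CPM (SD, n = 3), 2.40-fold or 1.26 on the log2 scale (SE 0.371, adjusted p 0.00623 by edgeR). Since Casq1 was tested only because of its induced libraries, its p without the filter is given beside it (adjusted p 0.00967 by edgeR). DESeq2 gave an adjusted p of 0.0504 over all genes with a read and, in a fit chosen after the data had been seen, 0.0223 over the filtered genes, where 60.3% of all genes passed. On the log2(FPKM + 1) scale the difference was 0.32, since a pseudocount of 1 exceeds the level of this gene. Casq2 (ENSMUSG00000027861, chromosome 3, 102086415 to 102146514, plus strand), the heart form, had 0, 0 and 1 reads in control and 3, 6 and 3 in induced libraries, a pooled ratio of 12.2 (counting interval 1.80 to 521). Leaving out libraries other than control replicate 3, which held the single control read, gave 8.145 to 13.8.

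Of the release channels, only Ryr2 had a like number of reads in all 3 induced libraries. Ryr2 (ENSMUSG00000021313, chromosome 13, 11553102 to 12106945, minus strand), the ryanodine receptor of the heart, had 0, 0 and 1 reads in control and 9, 10 and 10 reads in induced libraries. The groups did not overlap, with induced higher, as in 34.1% of all tested genes, though Ryr2 itself was not among those tested. The ratio of pooled reads was 29.5 (counting interval 4.88 to 1203), and 28.8 without induced replicate 2. It was 19.7 without control replicate 1 or 2, and without control replicate 3, which held the single control read, there is no ratio. The induced level was still very low, at 0.510 ± 0.0270 CPM (SD, n = 3) or 0.0177 FPKM, for a transcript model of 28790 bases.

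Ryr1 (ENSMUSG00000030592, chromosome 7, 29003344 to 29125179, minus strand), the release channel of skeletal muscle, had 2, 1 and 4 reads in control and 1, 13 and 3 in induced libraries. The groups overlapped, and 76.5% of the induced reads came from induced replicate 2. The pooled ratio of 2.47 had a counting interval of 0.972 to 7.04, and without that library it was 0.866. Ryr3 (ENSMUSG00000057378, chromosome 2, 112631355 to 113217096, minus strand), a minor form found in brain and other tissues, had 0 reads in control and 1, 1 and 0 in induced libraries.

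By FPKM, Ryr1 made up 100%, 100% and 84.1% of ryanodine receptor transcripts in control libraries and 11.1%, 59.8% and 28.3% in induced ones. The difference in means was -61.6 percentage points and the groups did not overlap. The exact permutation test gave p = 0.1, two-sided, the smallest value that 3 against 3 allows. These shares rest on 8 reads in control and 48 in induced cells.

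**Figure D2:**
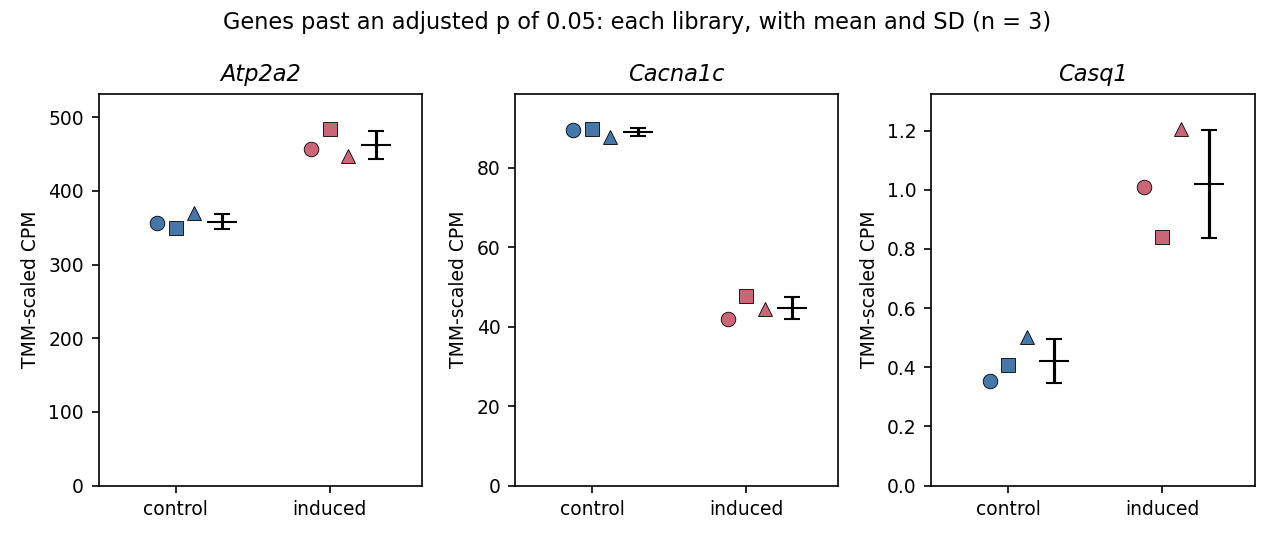
TMM-scaled CPM of Atp2a2, Cacna1c and Casq1 in each control (blue) and induced (red) library, with the mean and SD of each group (n = 3) beside the points. Each panel has its own axis from 0, and in none of the 3 do the groups overlap, as in 68.6% of all tested genes.

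Without the filter on low counts, 6 of the 10 genes passed an adjusted p of 0.05, since Ryr2 (4.71e-05), Atp2a1 (0.00470) and Casq2 (0.0423) then joined, all higher in induced cells (edgeR). In that fit 38% of 25705 genes were past the threshold. Ryr1 (0.250), Ryr3 (0.370) and Pln (0.513) did not pass. Among the 4724 genes with 10 to 100 reads over the 6 libraries, 13.4% were past the threshold as higher in that fit and 7.20% as lower. Of the added genes, DESeq2, also without the filter and with 32.8% of genes past the threshold, gave adjusted p-values of 0.00218 for Ryr2, 0.0263 for Atp2a1 and 0.0791 for Casq2. In a fit without the filter and without induced replicate 2, chosen after the data had been seen, edgeR gave 0.00164 for Ryr2, 0.243 for Atp2a1 and 0.167 for Casq2, with 37.4% of all genes past the threshold. Fewer genes were tested under a stricter filter, where 67.2% of all genes and 2 of the 10 passed, and with the replicate number as a block the shares were 63.6% and 3 of the 10.

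Induced replicate 2 stood apart in some skeletal muscle genes. The actin Acta1 had 2, 1 and 0 reads in control and 17, 123 and 1 in induced libraries. The myogenic factors Myog and Myod1 were also highest there. Myog had 0 control reads and 3, 19 and 0 induced reads, and Myod1 0 control reads and 1, 14 and 1 induced reads. The single read of Myf6 lay in induced replicate 3. Over the list of 11 skeletal markers the summed level was 1.72, 1.89 and 1.85 CPM in control and 3.93, 11.0 and 1.31 CPM in induced libraries. Of the 11, Myf5, Myh1 and Myh4 were at 0 throughout, and the 2 that could be tested, Mylpf and Tnnt3, did not pass. Not every marker was highest in induced replicate 2. In induced libraries Mylpf had 39, 33 and 14 reads, Tnnt3 13, 14 and 8, Ckm 1, 1 and 0 and Tnni2 0, 5 and 0. Atp2a1, Ryr1 and Casq2 were highest in the same library as Acta1, Myog and Myod1, Casq2 with 50% of its induced reads there. The part of skeletal muscle cells in their counts was not tested. Ryr2 and Casq1 had 34.5% and 27.6% of their induced reads in that library, close to an even share.

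**Figure D3:**
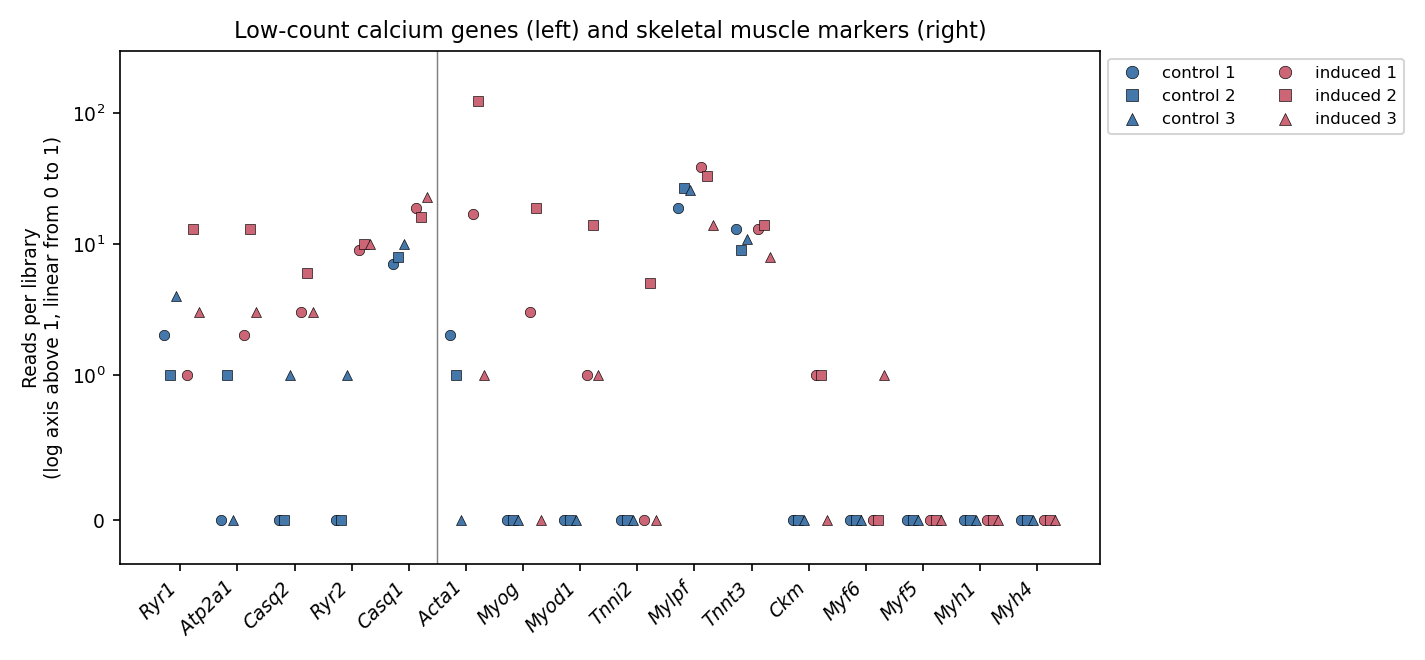
Reads per library of 5 low-count calcium genes (left of the line) and the 11 skeletal muscle markers (right), on an axis logarithmic above 1 and linear from 0 to 1. Induced replicate 2 (red squares) is the highest library for Ryr1 and Atp2a1 with 13 reads each and for Acta1, Myog and Myod1 with 123, 19 and 14, whereas Ryr2 has 9 to 10 reads in every induced library.

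The transcript of the calcium entry channel fell. Cacna1c (ENSMUSG00000051331, chromosome 6, 118587240 to 119196418, minus strand) encodes the pore of the main L-type channel of heart and smooth muscle. It had 89.4, 89.7 and 87.7 CPM in control and 42.0, 47.7 and 44.6 CPM in induced libraries. All induced libraries lay below all control libraries, as in 34.5% of all tested genes. The mean went from 88.95 ± 1.08 CPM to 44.8 ± 2.81 CPM (SD, n = 3), 0.503 of the control level, which is -0.99 on the log2 scale (SE 0.0565, adjusted p 2.54e-11 by edgeR). It made up 99.5% ± 0.0859 of L-type pore transcripts by FPKM in control and 99.4% ± 0.245 in induced cells, a difference of -0.169 percentage points (exact permutation test, two-sided, p = 0.4). Smooth muscle, another cell type, also uses this channel. Its listed markers, Des among them, summed to between 1042 and 1100 CPM in control and between 642 and 709 CPM in induced libraries. Acta2 made up most of each sum, and its mean went from 945.1 to 489.5 CPM, so the lower sum mainly follows that gene. Of the 7 tested, Acta2, Cnn1 and Lmod1 were lower, Myh11, Smtn and Des higher, and Tagln did not pass. Exons of Tagln share 67.9% of their bases with other genes, so its reads could have been left uncounted or assigned to a neighbour. Of all tested genes, 32.2% were lower and 32.6% higher. Des had 14 control and 283 induced reads, a log2 change of 4.36, and the study stained its protein as a myocyte marker. Its call came only through the induced libraries, where it is high. The part of smooth muscle in the lower level of Cacna1c was not tested.

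Promoter sequences are shown for the genes that stand for each pattern, since the drug given acts on methylation of CG sites: Ryr2 (near 0 in control cells and counted in all induced libraries), Casq1 (higher), Cacna1c (lower) and Pln (near 0 in both groups). Each window runs from 250 bases before to 50 bases after a RefSeq transcript start in GRCm38.p6, read 5′ to 3′ on the strand of the gene, and capitals mark every CG. The windows are chr13:12106896-12107195 (minus) for Ryr2, chr1:172219846-172220145 (minus) for Casq1, chr6:119108446-119108745 (minus), 1 of 3 windows, for Cacna1c, and chr10:53337436-53337735 (plus) for Pln.
Ryr2: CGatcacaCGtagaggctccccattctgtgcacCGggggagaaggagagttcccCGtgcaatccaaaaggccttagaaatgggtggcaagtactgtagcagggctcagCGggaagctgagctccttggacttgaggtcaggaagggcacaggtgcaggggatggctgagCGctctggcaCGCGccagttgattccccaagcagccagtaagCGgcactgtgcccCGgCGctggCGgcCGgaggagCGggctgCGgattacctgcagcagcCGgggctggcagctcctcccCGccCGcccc
Casq1: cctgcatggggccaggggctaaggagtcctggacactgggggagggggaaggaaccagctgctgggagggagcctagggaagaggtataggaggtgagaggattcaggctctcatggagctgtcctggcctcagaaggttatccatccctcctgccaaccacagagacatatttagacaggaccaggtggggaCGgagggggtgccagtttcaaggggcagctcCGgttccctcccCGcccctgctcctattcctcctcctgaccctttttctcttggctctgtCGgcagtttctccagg
Cacna1c: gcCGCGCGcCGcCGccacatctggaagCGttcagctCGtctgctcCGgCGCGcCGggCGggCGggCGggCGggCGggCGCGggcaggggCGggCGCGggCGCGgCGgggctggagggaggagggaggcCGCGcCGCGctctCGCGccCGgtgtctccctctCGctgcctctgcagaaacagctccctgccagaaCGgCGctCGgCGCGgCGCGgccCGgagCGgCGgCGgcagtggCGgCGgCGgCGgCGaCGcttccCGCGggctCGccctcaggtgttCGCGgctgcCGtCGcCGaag
Pln: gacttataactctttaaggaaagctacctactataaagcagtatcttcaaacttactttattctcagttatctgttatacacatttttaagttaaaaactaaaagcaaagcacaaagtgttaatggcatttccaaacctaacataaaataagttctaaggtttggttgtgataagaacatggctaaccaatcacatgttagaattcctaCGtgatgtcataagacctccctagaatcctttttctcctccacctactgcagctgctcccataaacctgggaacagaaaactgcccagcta

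These 4 windows held 18, 4, 57 and 1 CG sites in that order, against a median of 7 over the 32851 windows of all genes. The Cacna1c window had more than 99.8% of all windows and its other windows had 3 and 7, while the Ryr2 window had more than 70.3%. Windows were found for 8 of the 10 genes, 10 in all, and for Atp2a2 and Ryr3 none was matched. The remaining counts were 25 for Atp2a3, 9 for Ryr1, 6 for Casq2 and 4 for Atp2a1. Of the genes past the test, Atp2a2 had no window, and which of its starts Cacna1c uses in these cells was not tested. No relation between CG sites and the direction of change was tested. Methylation itself was not measured. The letters CANNTG, the core bound by myogenic factors such as MyoD, occurred in 8 of the 10 windows on either strand and in 72.3% of all windows.

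The wider calcium machinery was described with 8 further lists, 95 genes in all, of which 74 could be tested. Of these, 42 rose, 19 fell and 13 did not pass, so 82.4% changed where the background is 64.8%. That background was not matched for expression level, on which passing depends, and was 67.2% under the stricter filter. The median log2 fold change was 0.23 against -0.01 over all tested genes. The lists were chosen with earlier results of these data known. Of the 74 genes, 2 reached the count filter in all induced libraries but not in all control libraries (Trdn and Akap6) and 3 the other way (Cacna1h, Stac2 and Slc8a2), so these were tested by virtue of the group where they are high.

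**Figure D4:**
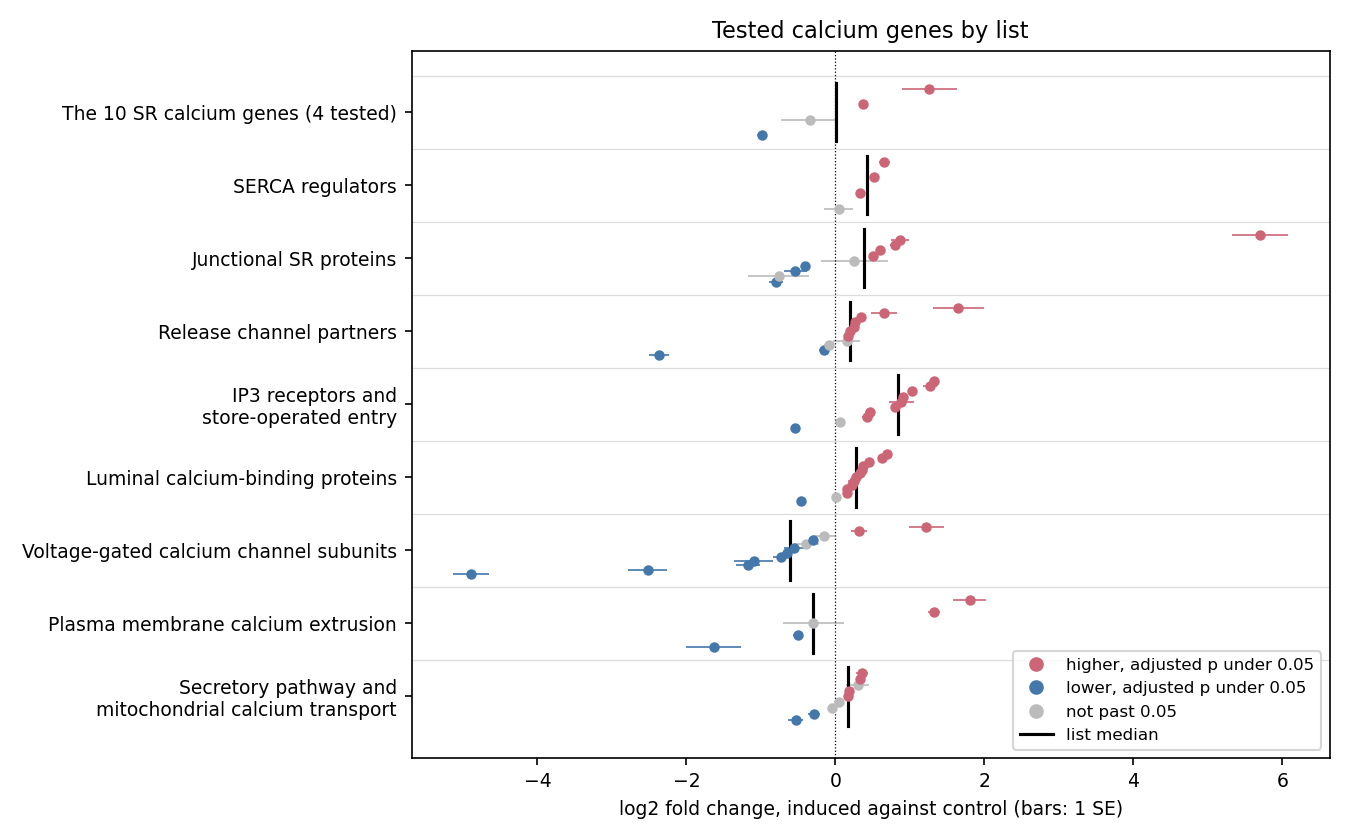
Log2 fold change (induced minus control) of each tested gene of the 10 calcium genes and the 8 further lists, 1 list per row, with bars of 1 SE and a black line at the list median. Red (higher) and blue (lower) marks passed an edgeR adjusted p of 0.05 and grey ones did not. Genes of IP3 receptors and store-operated entry lie mostly right of 0. Those of voltage-gated channel subunits, listed with adaptors and small GTPases, lie mostly left.

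Among regulators of the SERCA pump, 3 of the 4 tested genes rose (median 0.42), against 32.6% of all tested genes. S100a1, a calcium sensor that raises SERCA and ryanodine receptor activity in heart muscle, went from 57.1 to 90.1 CPM, a log2 change of 0.66 (adjusted p 4.02e-07 by edgeR). Tmx1, a thioredoxin-related protein of the endoplasmic reticulum, rose by 0.52 on the log2 scale and Hax1, a partner of phospholamban, by 0.33. Thbs4 did not pass. The small inhibitors sarcolipin (Sln) and myoregulin (Mrln) had 1 and 6 reads over all libraries, and 1 of the 7 listed genes, Strit1, was not matched in the table.

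Another list holds the proteins that build the junction between store and surface membrane. Of its genes, 5 of 10 tested rose and 3 fell (median 0.38), against 32.6% and 32.2% of all tested genes. Trdn, triadin, which ties calsequestrin to the ryanodine receptor, had 0, 3 and 3 reads in control and 94, 120 and 104 reads in induced libraries. The groups were far apart, at 0.101 and 5.59 CPM, a log2 change of 5.70 (SE 0.376, adjusted p 2.11e-10 by edgeR), and induced replicate 2 was close to the others. Trdn reached the count filter in no control library, so it was tested only through the group where it is high. Tmem38b, a potassium channel of the store, rose by 0.80 and Jph2, the junctophilin of heart muscle, from 52.3 to 79.4 CPM, or by 0.60. Tmem38a, the sister gene of Tmem38b and named after its values were seen, fell by 0.79, from 19.67 to 11.35 CPM. Sri, sorcin, a calcium-binding partner of the ryanodine receptor, had the highest mean level of the list over all libraries and fell by 0.40 on the log2 scale, from 125.6 to 94.9 CPM. In induced cells Asph, a gene with junctin among its products, was higher at 101.9 CPM and is named after its values were seen. The deposited values are per gene and do not separate junctin from the other products of Asph.

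Partners of the release channel rose in 7 and fell in 2 of 11 tested genes (median 0.19). Of all tested genes 32.6% rose and 32.2% fell. Camk2a, a calmodulin-dependent kinase best known from neurons, fell from 16.2 to 3.13 CPM, a log2 change of -2.37 (adjusted p 2.48e-11 by edgeR). Calm3, a calmodulin gene whose product senses calcium for many channels, rose by 0.25 on the log2 scale. Camk2d, the main heart form of the kinase and chosen here after its values were seen, went from 86.1 to 81.2 CPM and did not pass.

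Cells other than muscle mainly release calcium through IP3 receptors and refill the store by entry that its emptying opens. Of the IP3 receptors and store-operated entry genes, 8 of 10 tested rose and 1 fell (median 0.85). Over all tested genes the shares were 32.6% higher and 32.2% lower. Stim1, the sensor of an empty store, rose from 46.3 to 116.3 CPM, a log2 change of 1.33 (adjusted p 2.95e-13 by edgeR). Itpr1, an IP3-gated release channel, had 67.4, 68.3 and 65.6 CPM in control and 131 to 145.4 CPM in induced libraries, a log2 fold change of 1.03. Saraf, which turns store-operated entry off, was the most abundant of the list and rose by 0.90 on the log2 scale. Chosen after their values were seen, Itpr3 fell by 0.54 on the log2 scale, from 132.4 to 91.0 CPM, and Itpr2 did not pass. Per transcript length, Itpr1 stood at 3.63 FPKM in control and 7.44 FPKM in induced cells and Itpr3 at 14.6 and 10.1 FPKM. On the same scale Ryr1, Ryr2 and Ryr3 stood at 0.0136, 0.0177 and 0.00185 FPKM in induced cells.

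Of the luminal proteins that bind calcium or fold proteins in the store, 11 of 13 rose and 1 fell (median 0.28). The shares of all tested genes were 32.6% and 32.2%. Hspa5, the chaperone BiP, rose by 0.69 on the log2 scale and Sdf4, a calcium-binding protein of the secretory pathway, by 0.63. Calr, calreticulin, the main calcium buffer of the endoplasmic reticulum, was the most abundant and rose by 0.28, with 1082 CPM before and 1311 CPM after induction. Rcn1 fell by 0.47 on the log2 scale. Per transcript length, Calr stood at 372.1 FPKM in control and 454.5 FPKM in induced cells, and the muscle buffer Casq1 at 0.214 and 0.522 FPKM.

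Genes of voltage-gated channel subunits, listed with adaptors and small GTPases that act on these channels, went mostly the way of Cacna1c. Of 12 tested genes 8 fell and 2 rose (median -0.60), and another 12 had too few reads. Among all tested genes 32.2% fell and 32.6% rose. Stac2, an adaptor that acts on L-type channels, had 286, 237 and 231 reads in control and 3, 10 and 11 in induced libraries (log2 fold change -4.89). Cacna1h, a T-type channel, had 113, 85 and 103 reads in control and 25, 15 and 10 in induced libraries (log2 fold change -2.52). Cacna2d1, the auxiliary subunit that brings L-type channels to the surface, fell by 0.65 and the beta subunit Cacnb3, the most abundant of the list, by 0.30 on the log2 scale. The 8 also include Rrad and Rem1, small GTPases that inhibit these channels, which are named here after their values were seen.

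At the surface membrane, extrusion genes were divided, with 2 higher and 2 lower of 5 tested (median -0.29). All tested genes had 32.6% higher and 32.2% lower. The sodium-calcium exchanger Slc8a1, the main calcium exit of heart muscle, rose from 18.7 to 46.8 CPM, a log2 change of 1.33 (adjusted p 3.75e-11 by edgeR), and it is a gene that the study had picked for display on these samples. The pump gene Atp2b4 rose by 1.80 on the log2 scale and Atp2b1, the most abundant pump of the surface, fell by 0.50. Of the genes for calcium transport into the Golgi and mitochondria, 4 of 9 tested rose and 2 fell (median 0.18). The 66.7% past the threshold was near the 64.8% of all tested genes. Mcub, a dominant-negative subunit of the mitochondrial uniporter, fell by 0.54, while Smdt1 and Slc8b1 rose by 0.33 and 0.36 on the log2 scale. Mcu, the pore of the same uniporter and named after its values were seen, fell by 0.29.

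The genes whose pattern over the 6 libraries was most like that of Atp2a2 were Klf9, Wasl and Agap1, with Pearson correlations of 0.999, 0.999 and 0.998 of log2 CPM. The libraries fall into their 2 groups, and 3342 of the 14245 other tested genes had a correlation over 0.9, so such likeness is common and is given as a description.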

How the data were processed

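RNA sequencing was performed on 3 control and 3 induced samples, grouped by their titles. The authors deposited raw read counts per gene and FPKM values, one column of each per library, and no column was left without a sample. The submitters' processing notes name mm10, HISAT2 2.0.5, featureCounts 1.5.0-p3 and DESeq2 1.16.1 without their roles. The strand setting is not given in the sources used here, and the kit does not mark strand, so reads of overlapping genes cannot be told apart. Deposited fold changes, p-values and Gene Ontology tables hold the authors' own comparison and were not used. The methods speak of 2 replicates per condition, whereas the table has 3.

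For the counts, edgeR 4.0.16 in R 4.3.3 was used: filterByExpr (minimum count 10, minimum total 15), which kept 14246 genes with 99.9% of reads, TMM scaling, the two-sided quasi-likelihood test (prior count 0.125) of induced against control, and Benjamini-Hochberg adjustment at 0.05 over all genes tested. CPM is TMM-scaled. At a biological coefficient of variation of 5.82%, small changes pass. Pooled read ratios have exact binomial 95% intervals for counting error only, since reads are not independent molecules. Pairs of libraries within a group differed by more than sampling noise (2.56 to 8.91 chi-square per degree of freedom) and were kept separate. The table does not name its build, and 98.3% of matched genes have the coordinates of GENCODE M21 (GRCm38). Exon overlaps are from that annotation and promoters from RefSeq.

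The genes and lists were chosen with earlier results of these data known. Named genes are the 10 calcium genes, up to 3 genes per further list with the smallest p among those past 0.05 and the most abundant one, marker genes with reads, and the 3 most like Atp2a2. Some genes that this rule takes are not reported here. Alternatives were DESeq2 1.42.0, a block for the replicate number, median-ratio factors or library totals in place of TMM, no filter, and a filter that asked for a mean count of 10 and 1 CPM in 3 libraries. Each library was also left out in turn, the threshold was set at 0.01, and limma 3.58.1 was run on FPKM as log2 with a pseudocount of 1 or 0.1. The tests were checked on simulated counts.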

Additional observations from a re-analysis of the deposited data

How the results depend on the processing

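The number of the 10 calcium genes past an adjusted p of 0.05 was 3, and it was also 3 with any single library left out. Without the filter on low counts it was 6, since 10 genes were then tested in place of 4, at a background of 38% of all genes. Without the filter and without induced replicate 2, chosen after the data had been seen, it was 4 (Atp2a2, Cacna1c, Casq1 and Ryr2; background 37.4%). DESeq2 over all genes with a read, which changed the tool and the filter together, gave 4 (background 32.8%), with Ryr2 and Atp2a1 in and Casq1 out (adjusted p 0.0504). DESeq2 on the filtered genes, also chosen after the data had been seen, gave 3 (background 60.3%). Under the stricter filter it was 2 (background 67.2%), with Casq1 and Atp2a3 no longer tested. With the replicate number as a block it was 3, and the further lists had 61 genes past the threshold, as without the replicate block. Deviations of same-numbered libraries correlated at -0.02 to 0.03, so no effect shared by number was seen. A pairing with a small shared effect could look the same, so this does not settle whether the samples were paired. Over the alternatives, the further lists had 58 to 65. Of 542 values of the 32 genes with a test that were chosen by rule, 541 kept their direction and their side of the threshold, but most of these genes were taken for their small p, which nearly fixes this. Depth limits Ryr1, Ryr3, Pln, Atp2a1 and Casq2, for which a few reads set every value. It also limits Ryr2, whose induced reads were alike over libraries but whose ratio rests on 1 control read.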

Other observations

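Some genes of the further lists had too few reads for the test but lay apart between groups, and they are named after their values were seen. Jsrp1, a protein of the junctional sarcoplasmic reticulum, had 0, 0 and 1 reads in control and 4, 4 and 6 in induced libraries. The surface calcium pump gene Atp2b3 had 0 reads in control and 4, 5 and 1 in induced libraries. In the other direction, the pump inhibitor gene Mrln had 4, 1 and 1 reads in control and 0 in induced libraries.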
